A study of Mus musculus with 6 samples.

Results

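The proteasome genes were taken as the probe sets whose single gene symbol begins with Psm, a letter from a to g and a digit, the naming pattern of the subunits, activators and assembly chaperones of the proteasome. The pattern found 58 of 12422 probe sets, for 46 of the 8251 genes that the annotation names singly. Of the 46 genes, 44 are subunits, activators or chaperones. The other 2, Psmc3ip and Psme3ip1, share the letters but are no subunits. They are described apart below, but the counts over all members include them. The PA28 beta subunit is not described here, since its probe sets carry more than 1 gene symbol. Whole small intestines, taken at an age of 40 days, gave the RNA of 3 Cftr control (+/+) and 3 Cftr null (-/-) mice. Cftr is the chloride and bicarbonate channel of epithelial cells that is lost in cystic fibrosis. All 6 mice were congenic on the black6 background and had been fed Peptamen, a liquid diet, since they were 10 days old, so both groups share the diet as well as the background. Each group held 2 males and 1 female, the females being control replicate 3 and null replicate 2. Each 1-colour Affymetrix array held the RNA of 1 mouse, and precision is limited by having 3 mice a group. Values of single mice are given below in the order of replicates 1, 2 and 3. The labels do not say which part of Cftr was altered.

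The proteasome is the protease that degrades most short-lived and damaged proteins of the cell, usually after they have been tagged with ubiquitin. Its barrel-shaped core particle is built of outer alpha rings, which control entry, and inner beta rings, which hold the cutting sites. A regulatory particle of ATPases and non-ATPases binds the end of the barrel, recognises and unfolds tagged proteins and feeds them in. In cells of the immune system, and in other cells exposed to interferon gamma, the cutting subunits Psmb5, Psmb6 and Psmb7 are replaced by Psmb8, Psmb9 and Psmb10, which favours peptides that fit MHC class I molecules. The intestinal epithelium, renewed within days and close to many lymphocytes, contains both forms.

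Intensities are scaled and in arbitrary units. The 2%-trimmed mean was close to 500.3 on each array, and the correlation of each array with the arrays of its own group was at least 0.947 (log2 scale, 7601 probe sets). Control replicate 2 lay farthest from its group, with a median absolute difference of 0.23 from the other controls on the log2 scale, against 0.17 to 0.21 for the other 5 arrays. The brightest Cftr probe set read 801.6, 1017.5 and 1002.0 in the controls, 325.9, 295.6 and 368.5 in the nulls. It fell from 940.4 ± 120.4 (SD, n = 3) to 330.0 ± 36.6 in the nulls (log2 change -1.47, adjusted p = 0.00421). The tissue label was checked on 13 enterocyte markers, such as Vil1, Fabp2 and Apoa4, and all 13 had a probe set bright enough to be tested. Testing required more than 109.7, the 40th percentile of the whole table, in 3 or more arrays, and changes are differences of means of log2(intensity + 12).

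No proteasome gene passed the test between null and control mice. Of the 50 probe sets tested, for 43 genes, 0 were higher and 0 lower at an adjusted p under 0.05 (limma), where 1.13% of all 7601 tested probe sets were higher and 1.87% lower. At shares this small, 0 of 50 is near the background. The smallest adjusted p of a member was 0.107, for Psmd14. At an unadjusted p under 0.05, 10 were higher, which is 20% of the members against 9.10% of all tested probe sets. Lower were 0, against 8.17% of all. Without Psme3ip1, which is no subunit, 9 of 49 were higher. The count of 10 fell in every fit without a single mouse. It was 6, 8 and 9 without control replicates 1, 2 and 3, and 8, 3 and 7 without null replicates 1, 2 and 3. The males alone gave 2, with 44 of the 50 changes above 0. Fits of fewer mice also have less power, and the part of particular mice in these drops was not tested.

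The changes were small and mostly of the same sign. The log2 change was above 0 in 43 of the 50 members and below 0 in 7. Above 0 lay 54.3% of all tested probe sets. The members' median log2 change was 0.20, a factor of 1.14, and that of all tested probe sets was 0.029. All 3 null mice lay above all 3 controls in 16 of the 50 members (32%), against 13.1% of all tested probe sets. In 0 of the 50 did all nulls lie below all controls, against 10.8% of all. Without Psme3ip1, 42 of 49 had a change above 0, and in 15 of the 49 all nulls lay above all controls. These shares carry no test, because subunits of 1 complex measured in the same 6 mice are not independent of each other. The smallest absolute log2 change that passed anywhere in the table was 0.50, a 1.41-fold change, and 1 member exceeded it, the dim Psmg3 probe set described below. In data simulated with the spread of these arrays, 10.7% of 1.41-fold changes and 56.3% of 2-fold changes were recovered, so changes of the size seen here would mostly be missed.

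**Figure D1:**
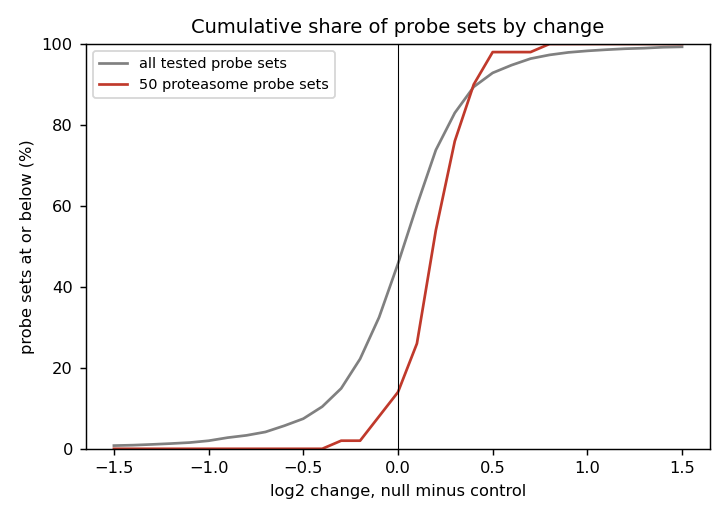
Cumulative share of probe sets (vertical axis, %) with a log2 change, null minus control, at or below the value on the horizontal axis, for the 50 proteasome probe sets and for all 7601 tested. At a log2 change of 0 the curve of the members stands at 14% and that of all probe sets at 45.7%, and at 0.5 they stand at 98% and 92.9%.

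The intervals of the changes set limits on both sides. The 95% confidence interval lay within a 2-fold change either way for 48 of the 50 members, 96%, compared with 81.4% of all tested probe sets. The 2 exceptions were dim probe sets of Psmd11 and Psmg3. Within a 1.5-fold change either way lay the intervals of 29 members. The median standard error of the members was 0.13, against 0.18 for all tested probe sets.

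**Figure D2:**
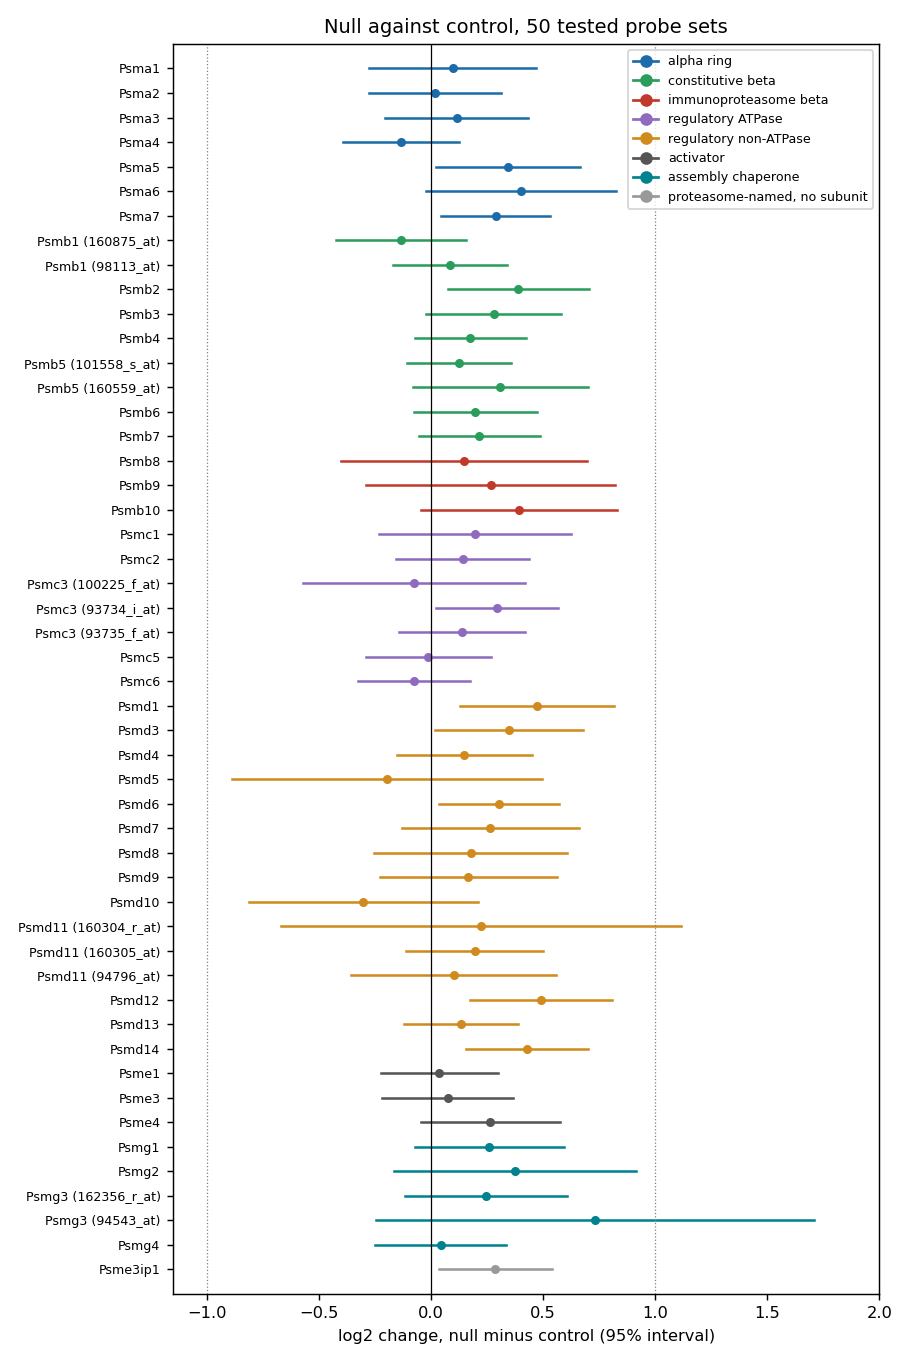
Log2 change, null minus control (horizontal axis), with its 95% confidence interval for each of the 50 tested proteasome probe sets, coloured by role; dotted lines mark a 2-fold change. Points range from -0.30 for Psmd10 to 0.73 for a dim probe set of Psmg3, and 43 of 50 lie right of 0.

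Mouse by mouse, the shift was uneven. The members' median deviation from the control mean was 0.010, -0.091 and 0.071 in the controls, 0.17, 0.29 and 0.13 in the nulls. The nulls thus did not overlap the controls, but null replicate 3 and control replicate 3 were close. For all tested probe sets the same medians lay between 0.0032 and 0.042. Control replicate 2 was the lowest of the 6 mice in 26 of the 50 members, and in 23% of all tested probe sets. Null replicate 2 was the highest in 20 members, and in 16.7% of all, and the lowest in 0 members. With control replicate 2 left out, the members' median change was 0.14 and 40 of 50 were above 0. With null replicate 2 left out it was 0.15 and 39 of 50 were above 0.

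The levels of marker genes of cell types in the tissue are set beside this shift. Of 12 listed crypt proliferation genes 11 were on the array. The summed level of their 14 tested probe sets was 9197 to 9929 in controls and 10903 to 12251 in nulls. Of the 14, 1 rose (1.13% of all), a probe set of the mitotic kinase Plk1 (limma, adjusted p = 0.0455). Their median log2 change was 0.28, with 12 above 0 and 2 below. At an unadjusted p under 0.05, 5 were higher and 0 lower (9.10% and 8.17% of all). In 7 of the 14 every null lay above every control (13.1% of all). The summed level of 13 enterocyte probe sets was 131520.3 to 157252 in controls and 86423 to 123776 in nulls. Of the 13, 0 passed the test (limma) and 3 were lower at an unadjusted p under 0.05 (8.17% of all). Such sums weigh the brightest probe sets most. The median deviation of the 13 from the control mean was 0.0035, -0.15 and 0.13 in the controls, -0.23, -0.076 and -0.41 in the nulls, and overlapped. Smooth muscle markers summed to 9415 to 14083 in controls and 16780.3 to 21133 in nulls. Of 7 probe sets 1 rose (1.13% of all), that of gamma-2 actin, Actg2 (limma, log2 change 1.35, adjusted p = 0.0151). All 7 had a change above 0, and 3 were higher at an unadjusted p under 0.05 (9.10% of all). No marker of these 3 lists was at 0 in any mouse. In RNA of whole tissue, a different number of cells of a type and a different amount of RNA per cell cannot be told apart, and the part of these markers in the members' shift was not tested.

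**Figure D3:**
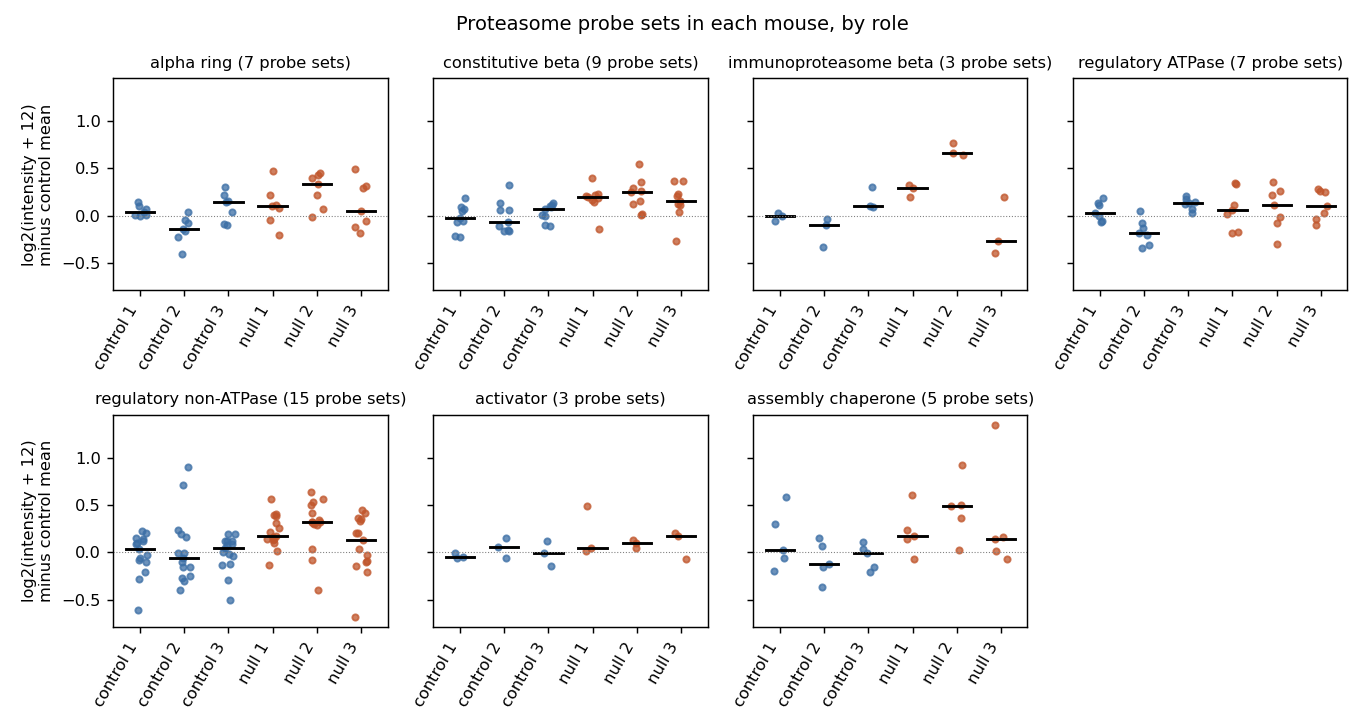
Each point is a tested probe set in a mouse: its log2(intensity + 12) minus its mean over the 3 controls (vertical axis), for control (blue) and null (orange) replicates 1 to 3, with a panel for each role and a bar at the median. The 3 immunoproteasome probe sets reach a median of 0.66 in null replicate 2 and -0.27 in null replicate 3. The medians of the constitutive beta probe sets lie between 0.16 and 0.25 in the nulls, with single probe sets outside that range.

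All 7 alpha subunits of the array were tested, with 1 probe set each. They had a median log2 change of 0.11, 6 above 0 and 1 below (54.3% above 0 among all), and 2 were higher at an unadjusted p under 0.05 (9.10% of all). Psma6 had the largest change: it read 3735.1, 2619.5 and 4304.8 in the controls, 4821.1, 4746.1 and 4257.5 in the nulls. The nulls were tight and the controls wide, and control replicate 3 overlapped the nulls (log2 change 0.40, SE 0.18, adjusted p = 0.314). The change was 0.20 without control replicate 2 and 0.55 without control replicate 3. Psma7, a subunit whose groups did not overlap, read 1490.9, 1372.4 and 1495.4 in the controls, 1692.6, 1827.8 and 1808.6 in the nulls. Its means were 1453 ± 69.8 (SD, n = 3) over the controls against 1776 ± 73.1 over the nulls, a log2 change of 0.29 (adjusted p = 0.216). Psma5 read 1695.6, 1493.9 and 1441.7 in the controls, 1662.4, 2082.3 and 2164.5 in the nulls, so that null replicate 1 lay among the controls (log2 change 0.34). Psma4 had the lowest change of the ring, -0.13, at 2677.3, 2628.8 and 2380.3 in the controls, 2221.5, 2533.4 and 2245.8 in the nulls, with overlapping groups. Psma1, Psma2 and Psma3 differed by 0.097, 0.017 and 0.11 on the log2 scale, and their groups overlapped as well.

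Of the constitutive beta subunits, 9 of 12 probe sets were tested, for all 7 genes. The other 3, of Psmb1 and Psmb4, were too dim. The median log2 change was 0.20, with 8 above 0 and 1 below. In 6 of the 9, for Psmb2, Psmb3, Psmb4, Psmb5, Psmb6 and Psmb7, every null mouse was above every control, as in 13.1% of all tested probe sets, but none passed the test. Psmb2, a non-catalytic subunit, had the largest change: it read 2028.9, 1693.9 and 1642.2 in the controls, 2342.4, 2608.9 and 2084.4 in the nulls (log2 change 0.39, 95% interval 0.075 to 0.70, adjusted p = 0.194). Psmb3 read 2142.3, 2734.0 and 2670.5 in the controls, 2840.6, 3060.4 and 3227.8 in the nulls, and control replicate 1 stood below its group. Psmb4 read 4020.5, 3783.7 and 4478.7 in the controls, 4581.2, 4556.4 and 4709.7 in the nulls, a narrow band in the nulls just above the highest control. The 2 tested probe sets of Psmb1 disagreed in sign. The first had the lowest change of the ring, -0.13, at 1854.9, 1569.3 and 1824.4 in the controls, 1578.4, 1754.5 and 1447.7 in the nulls, and the other a change of 0.086, and both overlapped.

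The catalytic subunits of the standard core had small differences between the groups and varied little among the nulls. Psmb5, which carries the chymotrypsin-like site, read 1985.2, 2148.7 and 2062.4 in the controls, 2289.0, 2240.4 and 2228.7 in the nulls (log2 change 0.13, SE 0.10). A second, dimmer Psmb5 probe set read 271.2, 399.9 and 295.4 in the controls, 369.3, 410.8 and 411.6 in the nulls and overlapped (log2 change 0.31). Psmb6, with the caspase-like site, read 1634.3, 1382.9 and 1665.1 in the controls, 1810.8, 1852.3 and 1698.4 in the nulls (log2 change 0.20, adjusted p = 0.444). Psmb7, with the trypsin-like site, read 1475.1, 1272.7 and 1535.9 in the controls, 1672.0, 1707.4 and 1587.2 in the nulls (log2 change 0.22, adjusted p = 0.395). In each of the 3 genes the null mice of the brighter probe set lay within a factor of 1.03 to 1.09 of each other.

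None of the 3 immunoproteasome subunits passed the test, and Psmb8 and Psmb9 varied widely among the null mice. Psmb8, the inducible counterpart of Psmb5, read 2394.2, 2435.2 and 2648.5 in the controls, 2856.1, 3885.7 and 1890.4 in the nulls. Null replicate 2 was the highest of the 6 mice and null replicate 3 the lowest, so that the nulls spanned the controls on both sides. The means were 2493 ± 137 (SD, n = 3) over the controls against 2877 ± 998 over the nulls, a log2 change of 0.15 with a 95% interval from -0.40 to 0.70 (adjusted p = 0.797). Psmb9, the counterpart of Psmb6, read 1304.0, 1215.0 and 1403.2 in the controls, 1600.0, 2236.9 and 1084.0 in the nulls, with the same mouse highest and the same mouse lowest. Its log2 change was 0.27, with an interval from -0.29 to 0.82 (adjusted p = 0.622). Psmb10, the counterpart of Psmb7, read 4110.8, 3191.1 and 4956.4 in the controls, 5026.8, 6358.7 and 4606.4 in the nulls. Here too null replicate 2 was the highest, but the lowest mouse was control replicate 2 (log2 change 0.39, SE 0.19, adjusted p = 0.337). The sizes of all 3 changes depended on single mice. The sign of the Psmb8 change turned without null replicate 2 (log2 change -0.099) and in the males alone (-0.055), and without null replicate 3 the change was 0.42. The Psmb9 change was 0.013 without null replicate 2, 0.065 in the males alone and 0.53 without null replicate 3. That of Psmb10 was 0.23 without control replicate 2 and 0.26 without null replicate 2.

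The spread within the nulls was larger for Psmb8 and Psmb9 than for their counterparts. On the log2 scale the SD among the 3 nulls was 0.52 for Psmb8 and 0.52 for Psmb9, compared with 0.020 for the brighter Psmb5 probe set and 0.064 for Psmb6. Among the 3 controls it was 0.078 and 0.10 for Psmb8 and Psmb9, and 0.057 and 0.15 for Psmb5 and Psmb6. Of all tested probe sets, 8.21% had a larger SD among nulls than Psmb8, and 86.9% a larger SD among controls. The counterparts were tight: 98.9% had a larger SD among nulls than the brighter Psmb5 probe set, and 90.4% than Psmb6. Psmb10 had an SD of 0.24 in nulls and 0.32 in controls. These spreads were singled out after the values were seen and, with 3 mice a group, were not tested against each other. The highest null was 2.06 times the lowest for both Psmb8 and Psmb9.

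**Figure D4:**
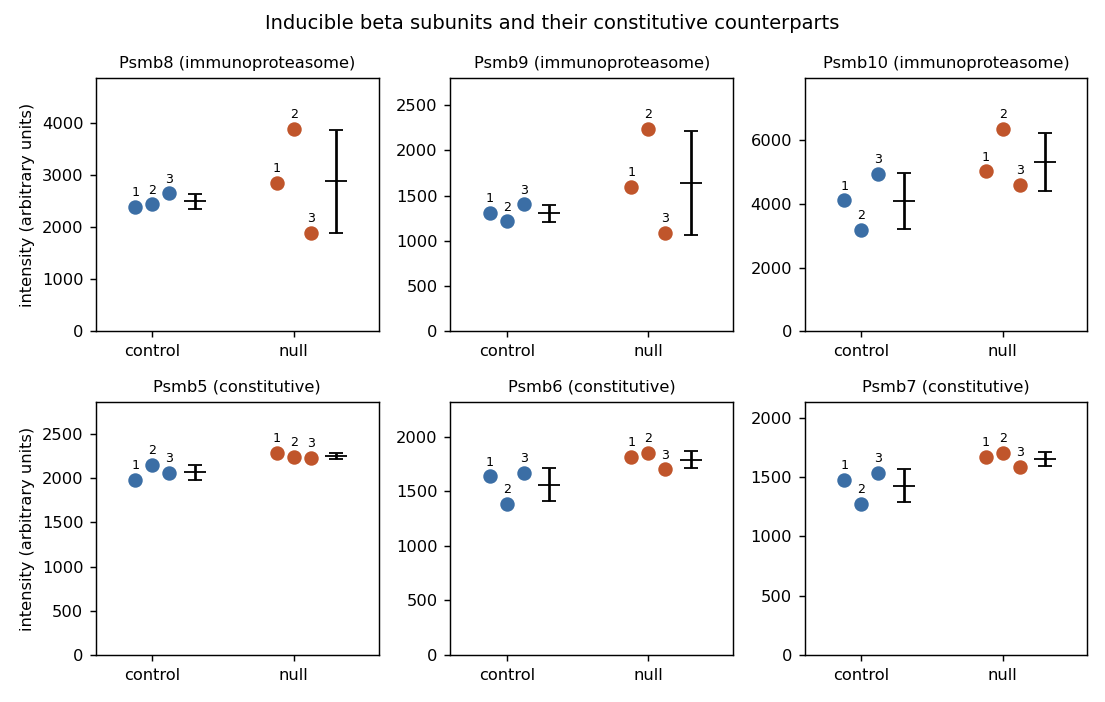
Intensity (vertical axis, arbitrary units, from 0) of the immunoproteasome subunits Psmb8, Psmb9 and Psmb10 (top) and of their constitutive counterparts Psmb5, Psmb6 and Psmb7 (bottom) in each mouse, numbered by replicate, with the mean and SD of each group beside the points. Psmb8 and Psmb9 are highest in null replicate 2 and lowest in null replicate 3, while the constitutive subunits keep within narrow bands in the nulls.

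Psmb8 and Psmb9 lie beside the peptide transporter genes Tap1 and Tap2 in the MHC region, in the order Psmb9, Tap1, Psmb8, Tap2 (RefSeq, GRCm38.p6). Psmb9 and Tap1 are read in opposite directions from neighbouring starts, and their promoter windows share 275 of 300 bases. Tap1, which carries proteasome products into the endoplasmic reticulum, read 888.0, 1058.7 and 1042.0 in the controls, 1307.1, 1664.6 and 974.3 in the nulls, with null replicate 2 the highest here as well (log2 change 0.37, adjusted p = 0.388). Psmb8 and Psmb9 shared a wide spread over the nulls, where Psmb5 varied little. Their order of the nulls (replicate 2, then 1, then 3) was not particular to them, since the constitutive Psmb6 and Psmb7 had it too. The 250 bases before the start of Psmb8, Psmb9 and Psmb5 are shown, 5′ to 3′ on the strand of the gene. Those of Psmd12, which had the largest change of the regulatory particle, are shown as well. Capitals mark matches to the gamma-activated site TTCNNNGAA, where the interferon gamma signal acts through Stat factors, in Psmb8, and to the core of the antioxidant response element TGACNNNGC, which Nfe2l1 and Nfe2l2 bind, in Psmb5 and Psmd12 (on the opposite strand in Psmd12).
Psmb8, chr17:34197945-34198194 (GRCm38.p6), plus strand: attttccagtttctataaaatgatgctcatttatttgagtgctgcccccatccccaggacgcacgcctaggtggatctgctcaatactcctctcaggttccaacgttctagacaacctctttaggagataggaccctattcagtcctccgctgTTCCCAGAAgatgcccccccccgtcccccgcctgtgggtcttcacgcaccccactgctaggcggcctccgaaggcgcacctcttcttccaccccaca
Psmb9, chr17:34187331-34187580 (GRCm38.p6), minus strand: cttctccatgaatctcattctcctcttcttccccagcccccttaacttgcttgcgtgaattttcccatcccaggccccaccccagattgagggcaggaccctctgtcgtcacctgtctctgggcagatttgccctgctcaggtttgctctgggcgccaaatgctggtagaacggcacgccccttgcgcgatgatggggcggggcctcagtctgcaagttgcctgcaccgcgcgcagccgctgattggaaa
Psmb5, chr14:54617996-54618245 (GRCm38.p6), minus strand: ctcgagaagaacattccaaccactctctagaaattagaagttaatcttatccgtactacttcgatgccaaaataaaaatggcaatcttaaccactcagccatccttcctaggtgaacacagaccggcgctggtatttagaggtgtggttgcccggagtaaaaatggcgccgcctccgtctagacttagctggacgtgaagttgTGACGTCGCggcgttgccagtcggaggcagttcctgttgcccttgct
Psmd12, chr11:107479278-107479527 (GRCm38.p6), plus strand: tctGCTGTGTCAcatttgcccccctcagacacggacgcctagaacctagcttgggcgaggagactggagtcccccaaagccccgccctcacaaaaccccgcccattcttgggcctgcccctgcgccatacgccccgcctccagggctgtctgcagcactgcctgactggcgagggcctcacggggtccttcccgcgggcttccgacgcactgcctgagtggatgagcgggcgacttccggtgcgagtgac

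The shown stretch of Psmb9 holds neither motif, which says only that these letters are not in this window. The same stretch of Psmd14, the member with the smallest adjusted p, also holds neither motif and is not shown. Promoter windows of 300 bases, 250 before to 50 after the start, were found for 39 of the 46 genes. The antioxidant response element core occurred, on either strand, in 6 of the 39 genes (15.4%), against 16.9% of the genes on the array and 12.4% of all 32851 windows. The genes were Psmb5, Psmb6, Psmc6, Psmd9, Psmd12 and Psme4. The core of the interferon-stimulated response element, GAAA and again GAAA after a gap of 2 bases, was found in 5 genes (12.8%, against 3.89% of array genes and 3.44% of all windows), namely Psmb3, Psmd4, Psmd9, Psme1 and Psmg4. The gamma-activated site was found in 3 (7.69%, against 8.5% and 8.30%), Psmb8, Psmd2 and Psmg1, and the CCAAT box in 15 (38.5%, against 42.5% and 37.4%). Taking the brightest tested probe set of each gene, the median log2 change with and without a motif was 0.18 and 0.16 for the antioxidant element (6 and 30 genes), 0.15 and 0.18 for the interferon-stimulated element (5 and 31), 0.20 and 0.17 for the gamma-activated site (2 and 34) and 0.17 and 0.17 for the CCAAT box (14 and 22). The capitals shown overlap no other searched motif. Some genes have more than 1 window, and a match is a description of the letters alone.

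Genes of the response to interferon gamma had values beside these. Of 24 listed genes, 19 were on the array, and of their 22 tested probe sets 0 rose and 0 fell (limma). At an unadjusted p under 0.05, 6 were higher and 0 lower (9.10% and 8.17% of all tested probe sets), and the median log2 change was 0.42. The list's median deviation from the control mean was -0.081, 0.12 and -0.094 in the controls, 0.27, 0.66 and -0.032 in the nulls. The brightest genes of the list were Cd74 and Irf1: Irf1 is a transcription factor that switches on Psmb8 and Psmb9, and Cd74 is the chaperone of MHC class II. Irf1 read 1769.4, 1958.8 and 1784.1 in the controls, 2720.2, 2716.4 and 2084.8 in the nulls, above the controls in every null (log2 change 0.44, adjusted p = 0.155). Cd74 read 7651.7, 6675.0 and 7613.3 in the controls, 8126.8, 8999.4 and 5792.5 in the nulls and overlapped (log2 change 0.041). Ubd and Igtp, chosen after their values were seen, differed widely between null mice. Ubd, a ubiquitin-like modifier that delivers proteins to the proteasome, read 49.5, 121.7 and 168.1 in the controls, 423.3, 706.9 and 147.3 in the nulls (log2 change 1.69, adjusted p = 0.189). Igtp, an interferon-inducible GTPase, read 256.9, 563.4 and 294.2 in the controls, 491.5, 1372.9 and 302.9 in the nulls, so that null replicate 2 alone lay outside the range of the controls.

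The order null replicate 2, then 1, then 3 was counted after it had been seen in Psmb8 and Psmb9. It held in 3 of 3 immunoproteasome probe sets, in 19 of all 50 members, in 11 of 22 probe sets of the interferon gamma list and in 15 of 17 of the MHC class I list, and in 19.7% of all tested probe sets. The counts of immunoproteasome probe sets and of members include Psmb8 and Psmb9, from which the order was taken. Null replicate 2 is the single female among the nulls, so mouse and sex cannot be told apart there. The test of the interaction of genotype and sex (limma) called 0 of the 50 members, with 0 at an unadjusted p under 0.05. Of all 7601 probe sets it called 0%, and 3.10% had an unadjusted p under 0.05. With 1 female in each group the interaction test has little power, so it cannot decide whether the sexes differ in the change. Marker genes of leukocytes, the cells in which the immunoproteasome is most abundant, summed to 11839.6 to 13843 in controls and 10076 to 10969 in nulls over 15 tested probe sets. The single one that passed, Lyz2, which Paneth cells and macrophages express, fell (limma, log2 change -0.82, adjusted p = 0.0437). Of all tested probe sets 1.87% fell. Lyz2 alone contributed 5050.9 to 7442.1 to the sum in controls and 3465.1 to 3897.2 in nulls. The median deviation of the 15 probe sets from the control mean was -0.021, 0.11 and -0.024 in the controls, 0.017, 0.17 and -0.080 in the nulls, highest in null replicate 2. The T cell genes Cd3d, Cd3e, Cd3g and Cd8a were too dim to be tested, and no leukocyte marker was at 0. The part of leukocytes in the spread of Psmb8 and Psmb9 was not tested.

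**Figure D5:**
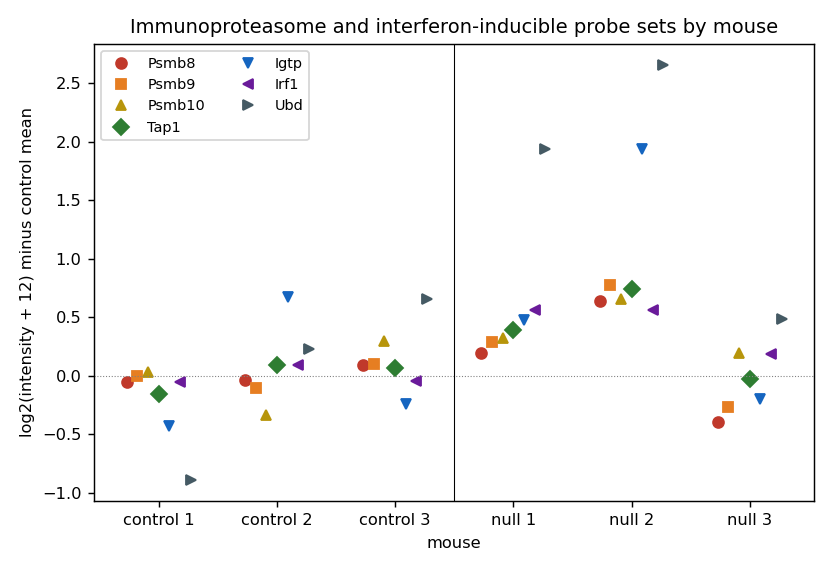
Log2(intensity + 12) minus the control mean (vertical axis) for Psmb8, Psmb9 and Psmb10 and for Tap1, Igtp, Irf1 and Ubd in each mouse (horizontal axis; controls left of the line, nulls right of it). In null replicate 2 all 7 lie above 0, and in null replicate 3 Psmb8, Psmb9, Tap1 and Igtp lie below 0.

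Peptide loading and MHC class I genes, which use the peptides that the immunoproteasome makes, did not pass either. Of 15 listed genes 12 were on the array, and of 17 tested probe sets 0 rose and 0 fell (limma). At an unadjusted p under 0.05, 0 were higher and 1 was lower (9.10% and 8.17% of all). The median log2 change was -0.11. B2m, the light chain of class I molecules, read 15425.1, 13554.7 and 14741.2 in the controls, 13032.8, 14793.3 and 11086.0 in the nulls (log2 change -0.18), and H2-K1, a heavy chain, had a change of -0.12. The groups overlapped in both. The name of the H2-K1 probe set marks possible cross-hybridization, and class I heavy chain genes are alike in sequence, so its reading may include their transcripts.

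The ATPases of the regulatory particle, which unfold substrates and open the core, had a median log2 change of 0.14, with 4 above 0 and 3 below. Of 9 probe sets 7 were tested, for Psmc1, Psmc2, Psmc3, Psmc5 and Psmc6. Psmc4 had a single probe set, at 14.3 to 54.8 in all mice, too dim to be tested. The 3 tested probe sets of Psmc3 gave 0.29, 0.14 and -0.075, and so disagreed in sign. The names of those at 0.14 and -0.075 mark a possible binding of other transcripts, and the name of the highest carries a different suffix. The highest of the 3 read 780.4, 711.1 and 856.4 in the controls, 991.6, 934.8 and 953.8 in the nulls, without overlap (adjusted p = 0.252). Psmc6 had the lowest change of the group, -0.076, at 3419.6, 3702.6 and 3665.3 in the controls, 3161.7, 3410.5 and 3671.0 in the nulls. Psmc5 averaged 1199 ± 130 (SD, n = 3) over the controls against 1185 ± 22 over the nulls (log2 change -0.012). Psmc2 read 1632.9, 1393.4 and 1813.8 in the controls, 1732.4, 1859.8 and 1719.2 in the nulls, with overlap (log2 change 0.14). Psmc1 read 864.6, 611.4 and 827.4 in the controls, 958.7, 975.6 and 707.6 in the nulls, where control replicate 2 and null replicate 3 were the low mice of their groups.

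The non-ATPases held the members with the smallest adjusted p-values. Of 16 probe sets 15 were tested, for 13 of the 14 genes. The scaffold subunit Psmd2 had a single probe set, at 25.5 to 108.2, too dim to be tested. The median log2 change was 0.19, with 13 above 0 and 2 below, where 54.3% of all tested probe sets lay above 0. At an unadjusted p under 0.05, 5 of the 15 were higher, compared with 9.10% of all. Psmd12, a lid subunit, had the largest change: it read 479.5, 386.0 and 431.8 in the controls, 566.4, 678.2 and 590.8 in the nulls, and every null was above every control. The means were 432.4 ± 46.8 (SD, n = 3) over the controls against 611.8 ± 58.8 over the nulls, a log2 change of 0.49 (SE 0.14, 95% interval 0.18 to 0.81, adjusted p = 0.112). Psmd14, the enzyme that cuts ubiquitin off the substrate, read 945.3, 810.6 and 857.7 in the controls, 1145.0, 1263.6 and 1120.1 in the nulls, again without overlap. The means were 871.2 ± 68.4 (SD, n = 3) over the controls against 1176 ± 76.7 over the nulls, a log2 change of 0.43 (SE 0.12, adjusted p = 0.107). Psmd1, a scaffold of the base, read 923.0, 717.9 and 992.5 in the controls, 1288.1, 1233.2 and 1116.2 in the nulls (log2 change 0.47, adjusted p = 0.156). Psmd3 and Psmd6, both of the lid, had changes of 0.35 and 0.30, also without overlap (adjusted p = 0.261 and 0.232). The name of the Psmd12 probe set marks possible cross-hybridization, so its reading may include other transcripts. Psmd12 was named by a rule that takes the largest change of each role, so its value also decided its choice. The other genes were picked out after their values were seen.

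Other lid and base subunits overlapped between the groups. Psmd4, a receptor of ubiquitin chains, read 1259.9, 1127.8 and 1145.4 in the controls, 1297.2, 1490.1 and 1151.5 in the nulls (log2 change 0.15). Psmd7, the partner of Psmd14, had a change of 0.27, Psmd8 of 0.18 and Psmd13 of 0.13. The 3 tested probe sets of Psmd11 gave 0.19, 0.10 and, in a dim probe set at 71.5 to 226.4, 0.22. The base assembly chaperones Psmd5 and Psmd10 were the non-ATPase genes with a change below 0, and Psmd9, the other chaperone among them, had a change of 0.17. Psmd10, also known as gankyrin, had the lowest change of all members, -0.30, at 191.3, 230.1 and 181.2 in the controls, 181.1, 187.9 and 119.4 in the nulls, where null replicate 3 stood below the rest (log2 change -0.11 without it). Psmd5 read 337.6, 653.3 and 274.0 in the controls, 396.5, 295.5 and 339.0 in the nulls, with control replicate 2 the highest mouse (log2 change -0.20).

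Among the activators, which open the core without the regulatory particle, 3 of 4 probe sets were tested and none passed. Psme1, the alpha subunit of the interferon-inducible PA28 ring, read 2535.9, 2535.8 and 2863.4 in the controls, 2730.7, 2890.1 and 2517.5 in the nulls. The groups overlapped (log2 change 0.036, 95% interval -0.22 to 0.30, adjusted p = 0.903). As for Psmb8 and Psmb9, null replicate 2 was the highest of all mice and null replicate 3 the lowest. The nulls of Psme1 stayed within a factor of 1.15, unlike those of Psmb8 and Psmb9. Interferon gamma is known to induce all 3 genes, and its part in their values was not tested. Psme3, the gamma subunit found in the nucleus, read 685.8, 768.0 and 620.8 in the controls, 692.7, 709.8 and 779.3 in the nulls (log2 change 0.075). Psme4, the large activator PA200, read 719.8, 778.2 and 744.3 in the controls, 1051.8, 802.8 and 860.8 in the nulls, with null replicate 1 the highest and every null above every control (log2 change 0.26, adjusted p = 0.366). The inhibitor Psmf1 was not analysed here.

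All 5 probe sets of the core assembly chaperones, Psmg1 to Psmg4, were tested. All 5 had a change above 0 (54.3% of all), with a median of 0.26. At an unadjusted p under 0.05, 0 were higher (9.10% of all). Psmg1 read 291.2, 318.5 and 301.9 in the controls, 334.8, 429.5 and 341.1 in the nulls, without overlap (log2 change 0.26, adjusted p = 0.407). Psmg2, its partner, read 108.8, 141.8 and 129.9 in the controls, 198.5, 183.4 and 127.6 in the nulls (log2 change 0.37). Psmg3 had the largest change of all members in a dim probe set, which read 141.6, 67.2 and 76.3 in the controls, 85.4, 181.5 and 248.7 in the nulls. Its control mean lay below the filter level of 109.7, and its interval, from -0.24 to 1.71, included 0. Without single mice its change ranged from 0.42 to 1.13. The brighter Psmg3 probe set had a change of 0.25 and Psmg4 of 0.043. The sign for Psmg4 turned without control replicate 2 or null replicate 1 (log2 change -0.019 and -0.022).

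Of the genes that share only the name, Psme3ip1, which encodes a protein that binds the activator Psme3, read 616.3, 625.5 and 598.5 in the controls, 727.6, 732.3 and 793.6 in the nulls. Every null lay above every control (log2 change 0.29, adjusted p = 0.233). Psmc3ip, a factor of meiotic recombination, was at 11.1 to 15.2 in all mice and was not tested.

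Other genes of the pathway were taken from lists made by function. Of 15 listed genes that associate with the proteasome, 10 were on the array, and 0 of their 12 tested probe sets rose and 0 fell (limma). At an unadjusted p under 0.05, 0 were higher and 0 lower (9.10% and 8.17% of all). Their median log2 change was 0.083. Pomp, the maturation factor of the core, read 2627.3, 2668.2 and 2600.6 in the controls, 2865.3, 3137.5 and 3030.8 in the nulls, without overlap (log2 change 0.19, adjusted p = 0.375), and Akirin2, which brings proteasomes into the nucleus, overlapped (log2 change 0.073). Of 28 genes of ubiquitin, its enzymes, shuttles and unfoldase, 13 were on the array. Among their 22 tested probe sets 0 rose and 0 fell (limma), with 0 higher and 4 lower at an unadjusted p under 0.05 (9.10% and 8.17% of all) and a median log2 change of -0.054. The 4, named after their values were seen, were those of the ubiquitin-conjugating enzymes Ube2d2a (-0.64) and Ube2d3 (-0.30 and -0.35) and of the ubiquitin ligase Stub1 (-0.34). In each of them every null lay below every control, which held for 5 of the 22 and for 10.8% of all tested probe sets. Vcp, the unfoldase that prepares many substrates, read 2492.5, 1978.6 and 2560.7 in the controls, 2671.9, 2874.1 and 2197.5 in the nulls (log2 change 0.14). Its other 2 tested probe sets, which are dimmer, had changes of the opposite sign, -0.46 and -0.20, and all 3 overlapped. Ube2n, also a ubiquitin-conjugating enzyme, had a change of 0.23.

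Of 20 genes of transcription factors and regulators that act on proteasome genes, 15 were on the array. Of their 18 tested probe sets 0 rose and 0 fell (limma). At an unadjusted p under 0.05, 1 was higher, that of Irf1, and 0 were lower (9.10% and 8.17% of all). The median log2 change was 0.12. Nfe2l2, the factor of the antioxidant response, read 2963.1, 2850.6 and 2525.0 in the controls, 2678.1, 2385.2 and 1786.5 in the nulls, where null replicate 3 was the lowest (log2 change -0.30, adjusted p = 0.403). Nfe2l1, which raises proteasome genes when proteasome activity is short, had changes of 0.21 and 0.13 in its 2 probe sets, neither of which passed.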

How the data were processed

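Total RNA of the entire small intestine of 6 mice was measured, 1 mouse per 1-colour Affymetrix array. The deposited values are the authors' intensities on a linear scale, scaled by them to a common mean, as the values themselves show. The program behind them was not given in the sources used here, and no detection calls were used. From the 12488 probe sets, 66 control probe sets were set aside. Of the rest, 10833 carry 1 gene symbol in the platform annotation, 396 several and 1193 none. Values were not normalized again. The change is the difference of group means of log2(intensity + 12), the 10th percentile of values serving as pseudocount. Probe sets above 109.7 in at least 3 arrays were fitted together with limma 3.58.1 in R 4.3.3 (variance trend, Benjamini-Hochberg adjustment over all 7601, threshold 0.05). The fit was tested on 20 simulated data sets with 200 changed probe sets each, where 4.88% of calls were false.

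The members and lists were chosen with earlier results of these data known. The rule for named probe sets took those past the threshold, the immunoproteasome and activator subunits with their counterparts, and the largest and smallest change of each role. Other members are described to account for all of them. Of the other lists it took up to 4 called genes or the 2 brightest. The labels name each array as a separate mouse, so the errors are between mice. Promoter windows are those of RefSeq (GRCm38.p6), matched by symbol for 39 of the 46 genes. Alternatives were another pseudocount, filter, normalization, variance model, sex as a covariate, males only and 1 probe set per gene. Further fits left out the probe sets with a letter suffix in the name, or each mouse in turn.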

Additional observations from a re-analysis of the deposited data

How the results depend on the processing

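Under every alternative run, 0 proteasome probe sets were higher and 0 lower past the threshold, also when each mouse was left out in turn (0 to 0), and the members' median log2 change stayed above 0, at 0.14 to 0.25 without single mice. Of 318 values of single named probe sets under up to 16 alternatives, 313 kept their sign and their side of the threshold and 5 changed sign, none of them called. Keeping the sign does not mean a stable size: Psmb9 ranged from 0.013 (without null replicate 2) to 0.53 and Psma6 from 0.20 (without control replicate 2) to 0.55. Psmb8 turned to -0.055 in males only, and without single mice it ranged from -0.099 (without null replicate 2) to 0.42. Psme1 ranged from -0.010 (without null replicate 2) to 0.095. Psmg4 ranged from -0.022 (without null replicate 1; -0.019 without control replicate 2) to 0.099. Among all tested probe sets, the calls were fewer in males only, with 50 higher and 85 lower, where fewer mice were fitted, and with a variance model without a trend, with 49 higher and 92 lower, where the cause was not tested. They ranged from 17 to 68 higher and from 35 to 117 lower without single mice. The lowest counts were those without null replicate 1. No paired analysis was possible because the labels give no replicate numbers or litters. The sample titles are codes that the labels do not explain: 1 control and 1 null share the start of theirs, which would make 1 pair at most. Probe sets near the filter level, such as those of Psmg3 and Psmd11, give only wide intervals.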
